A study of Sus scrofa with 6 samples.

Results

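The SLC25 genes encode the mitochondrial carriers, and their RNA was measured here in loin, the longissimus dorsi muscle, from Wei and from Yorkshire pigs. Members were the rows of the deposited gene table whose symbol starts with SLC25A and a number, leaving out 1 such row that is not reported here. This gave 39 rows of 25322 in all, with 38 distinct symbols, since 2 rows are named SLC25A6. Of the 39, 34 passed the filter on low counts, which left 13209 genes to test. RNA sequencing was done on 3 libraries from Wei pigs, titled YH, and 3 from Yorkshire pigs, titled LWH. Wei pigs had commercial feed without restriction and were slaughtered at 90 kg, and Yorkshire pigs were kept under like conditions. The labels give no weight for the Yorkshire pigs, no age or sex for either breed, and no statement that libraries came from separate animals, so each p-value is set against the spread among these libraries alone.

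Mitochondrial carriers sit in the inner membrane, which is closed to most solutes, and move nucleotides, phosphate, amino acids, carboxylates and cofactors across it. Each is built from repeats of the same membrane module, and most exchange one solute for another. In working muscle the ADP/ATP carrier and the phosphate carrier bring ADP and phosphate to the ATP synthase and return ATP to the contractile proteins, and the aspartate/glutamate and oxoglutarate carriers run the malate-aspartate shuttle, which passes the reducing power of glycolysis to the respiratory chain.

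Total counts ran from 15285197 to 27096747 per library. The 6 rows of skeletal muscle markers (ACTA1, CKM, MYLPF, TNNC2, TTN and DES) were detected in each library and summed to between 79640 and 153019 CPM (counts scaled to the size of the library, after TMM scaling). Y-linked rows held 6901 counts in Wei replicate 2 and no more than 14 elsewhere. By these counts only Wei replicate 2 came from a male, and the part of sex in the results below was not tested. Lymphocyte markers summed to 6.39, 7.22 and 7.24 CPM in Wei and to 9.26, 11.7 and 38.9 in Yorkshire, the last in replicate 3. The breeds did not overlap. Of 3 lymphocyte markers tested 0 passed edgeR's test, and 3 were lower in Wei at an unadjusted p under 0.05 (11.8% of all genes). DESeq2 called 2 lower (4.38% of all genes) and limma voom 0. The 6 fibroblast rows moved with breed, summing to 540 to 1533 CPM in Wei and 2014 to 3338 CPM in Yorkshire. No row was at 0, and all 6 log2 fold changes were negative. DPT alone passed edgeR's test, lower in Wei (2.35% of all genes were). At an unadjusted p under 0.05, 4 were lower (11.8% of all genes). DESeq2 called 4 lower and limma voom 1, beside 4.38% and 2.13% of all genes. The sum of adipocyte markers was also apart, at 576 to 599 CPM in Wei and 384 to 436 in Yorkshire. Most of that sum was PLIN4, which rose in Wei (0.70 on the log2 scale, edgeR adjusted p = 0.0336). It was the 1 called of 6 tested, beside 2.73% of all genes called higher. PNPLA2 (0.44) was also higher in Wei without overlap. CFD (-0.24), CIDEC (-0.51) and PLIN1 (-0.077) had negative log2 fold changes, and they and LIPE (0.55) overlapped between breeds. The part of any of these cell types in the results below was not tested. In bulk muscle, fewer cells of a type and less RNA per cell cannot be told apart.

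The carriers spanned a wide range of levels. By FPKM, the deposited value scaled for gene length and library depth, SLC25A4 and SLC25A3 stood far above the rest, 9 members averaged 10 to 100 FPKM, 18 averaged 1 to 10 and 10 averaged under 1. SLC25A4, the ADP/ATP carrier of heart and skeletal muscle, averaged 839 ± 60.3 FPKM (SD, n = 3) in Wei and 455 ± 44.6 in Yorkshire. SLC25A3, the phosphate carrier, averaged 491 ± 67.2 FPKM in Wei and 409 ± 32.5 in Yorkshire. Next in order were SLC25A11, the oxoglutarate/malate carrier (86.3 FPKM in Wei, 67.5 in Yorkshire), SLC25A25 (73.8 and 55.7), SLC25A12 (42.3 and 31.4), the scaffold row of SLC25A6 (33.5 and 36.2) and SLC25A39 (29.1 and 28.6). The neighbours SLC25A4 and SLC25A3 kept the same order in each of the 6 libraries, and SLC25A25 was above SLC25A12 in each of them. The ranges of the other neighbours from SLC25A11 to SLC25A39 met in at least 1 breed.

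**Figure D1:**
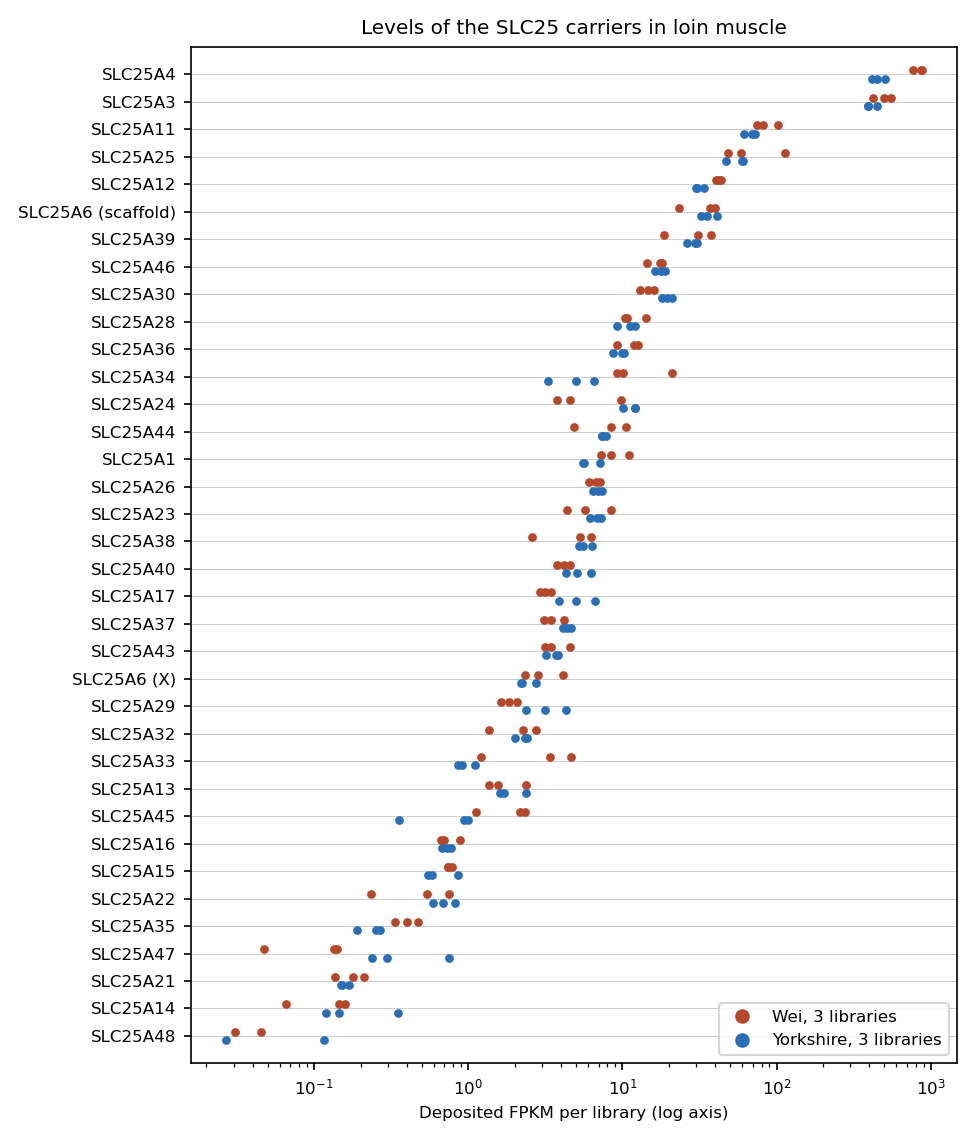
Deposited FPKM (log axis) of 36 carriers, 1 point per library, Wei above and Yorkshire below each line; values of 0 cannot be drawn on this axis. SLC25A4 and SLC25A3 lie far to the right of the others, and most members lie between 1 and 100 FPKM.

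Summed over the whole set, counts were higher in Wei. All 39 rows took 0.302%, 0.278% and 0.279% of the counts of Wei replicates 1 to 3 and 0.202%, 0.219% and 0.191% of those of Yorkshire replicates 1 to 3, so the breeds did not overlap. SLC25A4 alone made up 47.0 ± 2.71% (SD, n = 3) of the carrier counts in Wei and 35.7 ± 1.02% in Yorkshire. The rows summed to 2889 ± 176 CPM in Wei and 2028 ± 211 in Yorkshire, and without SLC25A4 to 1529 ± 66.5 and 1302 ± 119. A smaller gap was left without SLC25A4, with Wei libraries from 1456 to 1586 CPM still above Yorkshire libraries from 1165 to 1373 CPM. A few members carried the sum, as the 3 highest in a library held between 70.7% and 80.96% of the carrier counts. Without SLC25A4, SLC25A3 and SLC25A25, a set chosen after the values were seen, the rest summed to 608 ± 21.2 CPM in Wei and 565 ± 39.9 in Yorkshire, and the breeds overlapped.

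The comparison of breeds asked which carriers differ in their RNA between Wei and Yorkshire loin. SLC25A4 and SLC25A34, a carrier whose solute is not settled, passed edgeR's test as higher in Wei, and no member passed it as lower. With edgeR's quasi-likelihood test and Benjamini-Hochberg adjustment over all genes, 2 of 34 members (5.88%) passed an adjusted p of 0.05, and 5.08% of all genes tested did. For genes higher in Wei alone the background was 2.73% (2 members), and for genes lower in Wei 2.35% (0 members). At an unadjusted p under 0.05 there were 7 members higher and 3 lower in Wei, 20.6% and 8.82% of the 34, beside 11.4% and 11.8% of all genes; in either direction it was 29.4% of members and 23.3% of all genes. DESeq2 called 4 members higher and 1 lower (11.8% and 2.94%, beside 5.4% and 4.38% of all genes). With limma voom 2 were higher and 0 lower (5.88% and 0%, beside 2.74% and 2.13% of all genes). Values of the 3 Wei and 3 Yorkshire libraries did not overlap for 14 members (41.2%), 8 higher and 6 lower in Wei, where 29.6% of all genes tested did not. The median log2 fold change was 0.056 over the members and -0.023 over all genes tested. Counted in either direction, the share of members called was near the background with edgeR and with limma voom (5.88% beside 4.88%), and with DESeq2 it was 14.7% beside 9.78%, on 5 members. The sections that follow describe single carriers.

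**Figure D2:**
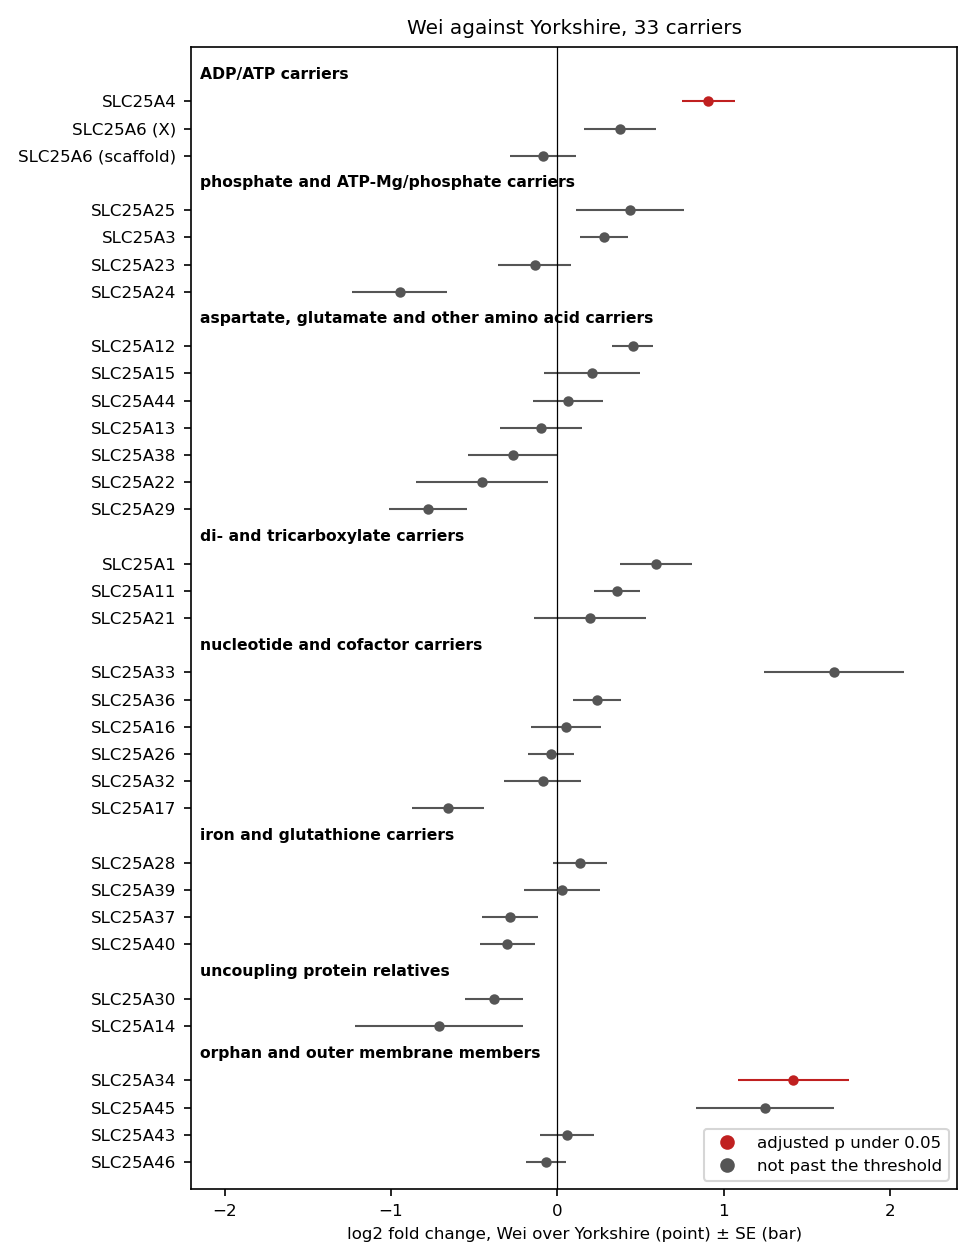
Log2 fold change of Wei over Yorkshire (point) with its SE (bar) for 33 of the carriers tested, grouped by what they carry. The 2 red points, SLC25A4 and SLC25A34, passed an adjusted p of 0.05, and the grey points did not.

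ADP/ATP carriers exchange ADP from the cytosol for ATP made in the matrix. SLC25A4 (ENSSSCG00000015790, chromosome 15, 52922448 to 52926945 in Sscrofa10.2) stood at 1277, 1267 and 1534 CPM in Wei replicates 1 to 3 and at 762, 795 and 620 CPM in Yorkshire replicates 1 to 3. The lowest Wei library was well above the highest Yorkshire library. On the log2 scale it rose by 0.91 ± 0.16 (SE; edgeR, adjusted p = 0.0244), 1.87 times the Yorkshire level. The adjusted p was 8.97e-06 with DESeq2 and 0.0216 with limma voom. It missed the threshold without Yorkshire replicates 1, 2 or 3 or Wei replicate 3 (adjusted p of 0.0564, 0.0836, 0.0794 and 0.0617) and passed it without Wei replicate 2 (0.96, adjusted p = 0.0400), with fold changes between 0.81 and 0.98 over all 6 fits that left out a library.

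SLC25A4 was also higher relative to its partners within each library. The ratio of SLC25A4 to SLC25A3 in FPKM was 1.59, 1.83 and 1.75 in Wei and 1.15, 1.12 and 1.06 in Yorkshire. Relative to ATP5B, the beta subunit of the ATP synthase, it was 1.66, 1.71 and 2.30 in Wei and 1.05, 1.15 and 1.07 in Yorkshire. SLC25A3 relative to ATP5B averaged 1.10 ± 0.20 (SD, n = 3) in Wei and 0.98 ± 0.061 in Yorkshire, and those groups overlapped. These ratios do not depend on how libraries are scaled, and they were chosen after the values of SLC25A4 were seen.

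The other ADP/ATP carriers were minor. One row named SLC25A6, the broadly expressed form, lies on an unplaced scaffold (GL896347.1, 4277 to 5162) and stood at 21.1, 14.0 and 23.7 CPM in Wei and 19.8, 20.4 and 22.3 in Yorkshire, or -0.086 ± 0.197 on the log2 scale (edgeR, adjusted p = 0.832). Without Wei replicate 2, its lowest library, the change was 0.11. The second row of that name (ENSSSCG00000012623, chromosome X, 113743301 to 113746206) is listed as SLC25A5 in the table that pairs Ensembl IDs with symbols. It stood at 6.27, 4.03 and 5.33 CPM in Wei and 3.95, 3.76 and 4.34 in Yorkshire, at 0.38 ± 0.21 on the log2 scale (adjusted p = 0.328). These genes are close copies of one another, and how the authors' counting split reads between them is not given in the sources used here, so the values of the minor forms are uncertain. SLC25A4 took 98.2 ± 0.36% (SD, n = 3) of the counts of these 3 rows in Wei and 96.6 ± 0.66% in Yorkshire, without overlap between breeds. SLC25A31, the ADP/ATP carrier of the testis, was at 0 in each library, which allows up to 3 counts, or 0.109 to 0.195 CPM by library; such limits cover counting error only.

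**Figure D3:**
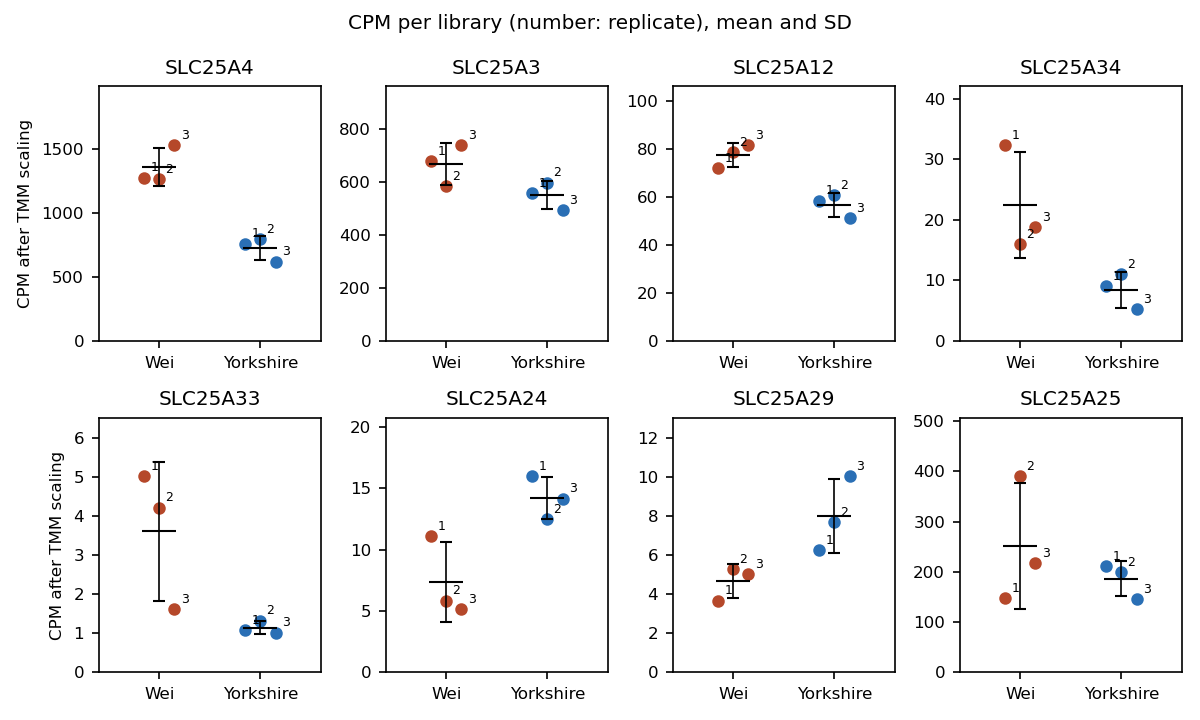
CPM after TMM scaling of 8 carriers in each library, with replicate numbers beside the points and the mean and SD of each breed in black. Wei and Yorkshire points are apart for SLC25A4, SLC25A12, SLC25A34, SLC25A33, SLC25A24 and SLC25A29 and overlap for SLC25A3 and SLC25A25.

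Phosphate carriers and ATP-Mg/phosphate carriers set the phosphate and the adenine nucleotide content of the matrix. Of the 4 tested, 0 passed edgeR's test and 1 was lower in Wei at an unadjusted p under 0.05 (11.8% of all genes were). DESeq2 called 1 lower (4.38% of all genes) and limma voom 0. SLC25A3 (chromosome 5, 89607357 to 89615244) stood at 680, 586 and 742 CPM in Wei and 560, 599 and 496 in Yorkshire, or 0.28 ± 0.15 on the log2 scale (edgeR, adjusted p = 0.288). Wei replicate 2 lay below Yorkshire replicate 2, so the breeds overlapped.

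The ATP-Mg/phosphate carriers SLC25A23, SLC25A24 and SLC25A25 are switched by calcium, which they bind on a domain outside the membrane. SLC25A24 (chromosome 4, 122094476 to 122127835) stood at 11.1, 5.85 and 5.19 CPM in Wei and 15.98, 12.5 and 14.2 in Yorkshire. All Wei libraries were below all Yorkshire libraries, at a log2 fold change of -0.95 ± 0.28, with adjusted p of 0.0918 in edgeR, 0.0254 in DESeq2 and 0.0644 in limma voom. It passed edgeR's test without Wei replicate 1 (-1.36, adjusted p = 0.0261), the Wei library with the most of it. SLC25A25 (chromosome 1, 302453222 to 302567491), the most abundant of the 3, stood at 147, 390 and 217 CPM in Wei and 212, 199 and 146 in Yorkshire. Wei replicate 2 stood above all others, and the log2 fold change of 0.44 ± 0.32 (adjusted p = 0.450) came to -0.020 without it. SLC25A23 ranged from 5.27 to 8.93 CPM in Wei and from 7.19 to 9.07 in Yorkshire. SLC25A25 made up 88.0%, 97.2% and 94.5% of the counts of the 3 genes in Wei and 89.4%, 91.0% and 87.1% in Yorkshire, and the breeds overlapped. The share of SLC25A24 averaged 3.45 ± 2.80% (SD, n = 3) in Wei and 6.96 ± 1.37% in Yorkshire, also with overlap, since Wei replicate 1 (6.65%) lay above Yorkshire replicate 2 (5.71%).

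Amino acid carriers numbered 7, all tested. With edgeR 0 passed, with 1 higher and 1 lower in Wei at an unadjusted p under 0.05 (11.4% and 11.8% of all genes). DESeq2 called 1 higher (5.4% of all genes) and limma voom 0. SLC25A12 (chromosome 15, 87284185 to 87377986), the aspartate/glutamate carrier of muscle and brain and a step of the malate-aspartate shuttle, stood at 72.1, 78.7 and 81.7 CPM in Wei and 58.5, 60.6 and 51.1 in Yorkshire. The 3 Wei libraries were all higher, at a log2 fold change of 0.45 ± 0.12 with adjusted p of 0.0750 in edgeR, 0.0378 in DESeq2 and 0.0731 in limma voom. SLC25A13, the liver form of the same carrier, stood at 4.61, 3.06 and 3.72 CPM in Wei and 3.91, 5.09 and 3.28 in Yorkshire, with no separation of breeds. SLC25A12 took 94.0%, 96.3% and 95.6% of the counts of the pair in Wei and 93.7%, 92.3% and 94.0% in Yorkshire. The breeds were only just apart, by Wei replicate 1 at 93.99% and Yorkshire replicate 3 at 93.97%.

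SLC25A29 (chromosome 7, 128642764 to 128656947), which carries basic amino acids, stood at 3.67, 5.27 and 5.04 CPM in Wei and 6.25, 7.69 and 10.02 in Yorkshire. The Wei libraries were all lower, at -0.78 ± 0.24 on the log2 scale (edgeR, adjusted p = 0.0954), and -0.57 without Yorkshire replicate 3. SLC25A22, a glutamate carrier, was low throughout, at 1.83, 0.65 and 1.61 CPM in Wei and 2.34, 1.83 and 1.49 in Yorkshire (-0.45 ± 0.40). Its difference came to -0.12 without Wei replicate 2 and to -0.70 without Wei replicate 1. The other 3 overlapped between breeds: SLC25A44, a carrier of branched-chain amino acids, at 0.065 ± 0.210, SLC25A38, a glycine carrier needed for heme synthesis, at -0.27 ± 0.27, and SLC25A15, the ornithine carrier, at 0.21 ± 0.29. SLC25A44 and SLC25A38 were both lowest in Wei replicate 3, at 18.8 and 5.63 CPM.

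Carboxylate carriers numbered 3, all with positive log2 fold changes, and 0 passed edgeR's test, DESeq2 or limma voom. At an unadjusted p under 0.05 in edgeR, 2 were higher in Wei (11.4% of all genes were). SLC25A11 (chromosome 12, 54039543 to 54042605), the partner of SLC25A12 in the malate-aspartate shuttle, stood at 145, 131 and 130 CPM in Wei and 120, 107 and 90.4 in Yorkshire. The breeds did not overlap, at 0.36 ± 0.14 (adjusted p = 0.169). The row's ID (ENSSSCG00000017907) is listed as PFN1, a profilin, in the table that pairs IDs with symbols, though PFN1 has a row of its own nearby, so which gene its reads come from is uncertain. SLC25A1, the citrate carrier, which supplies carbon for fatty acid synthesis, stood at 11.9, 11.6 and 18.8 CPM in Wei and 9.26, 8.46 and 10.4 in Yorkshire. Its Wei libraries were all higher as well, at 0.59 ± 0.21 (adjusted p = 0.147), with Wei replicate 3 well above the other two and a log2 fold change of 0.33 without it. SLC25A21, the oxoadipate carrier, had 76 counts in all and overlapped between breeds. Its ID is listed as PAX9, whose row it overlaps, so it is uncertain in the same way.

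Nucleotide and cofactor carriers numbered 7, and 0 passed edgeR's test. At an unadjusted p under 0.05, 1 was higher and 1 lower in Wei (11.4% and 11.8% of all genes). DESeq2 called 1 higher (5.4% of all genes) and limma voom 0. SLC25A33 (chromosome 6, 64148526 to 64168532), a pyrimidine nucleotide carrier that feeds mitochondrial DNA and RNA synthesis, had the largest log2 fold change of the 34, 1.66 ± 0.42. It stood at 5.03, 4.23 and 1.61 CPM in Wei and 1.09, 1.33 and 1.02 in Yorkshire. Wei replicate 3 lay close to the Yorkshire libraries and the other two Wei libraries far above them. The adjusted p was 0.0609 in edgeR, 0.0053 in DESeq2 and 0.115 in limma voom, and edgeR's was 0.0234 without Wei replicate 3 (2.02). It rests on 263 counts in all. SLC25A36, which carries the same solutes, stood at 13.3, 14.1 and 11.8 CPM in Wei and 10.7, 11.8 and 10.8 in Yorkshire, at 0.24 ± 0.14 (adjusted p = 0.355). SLC25A36 took 72.6%, 77.0% and 88.0% of the counts of the pair in Wei and 90.7%, 89.9% and 91.4% in Yorkshire. The balance lay more toward SLC25A33 in Wei replicates 1 and 2. In Wei replicate 3 it was close to that of Yorkshire replicate 2, on 33 and 24 counts of SLC25A33.

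SLC25A17 (chromosome 5, 4802927 to 4850173), a carrier of the peroxisome that moves coenzyme A and other cofactors, stood at 4.50, 5.98 and 5.92 CPM in Wei and 6.92, 8.35 and 10.6 in Yorkshire. The Wei libraries were all lower, at -0.66 ± 0.22 (edgeR, adjusted p = 0.113), and -0.48 without Yorkshire replicate 3. That library, which had the highest sums of lymphocyte and of macrophage markers (38.9 and 37.1 CPM), was the highest for SLC25A17 and SLC25A29 alike. It was also the lowest library for SLC25A4 (620 CPM) and SLC25A34 (5.25 CPM), whose log2 fold changes were 0.81 and 1.16 without it. The part of lymphocytes or macrophages in any of these values was not tested. Between breeds, values overlapped for SLC25A26, the S-adenosylmethionine carrier, at -0.040 ± 0.139, SLC25A32, linked to folate and FAD, at -0.088 ± 0.232, and SLC25A16 at 0.053 ± 0.211. SLC25A26 was among the steadiest members, with a coefficient of variation of 3.55% in Wei and 5.91% in Yorkshire.

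Iron and glutathione carriers numbered 4. None passed edgeR's test, and 0 had an unadjusted p under 0.05 or passed DESeq2 or limma voom. The mitoferrins SLC25A28 and SLC25A37 bring iron into the matrix for heme and iron-sulfur clusters, and SLC25A37 is the form of red cell precursors. SLC25A28 stood at 21.95, 18.2 and 20.3 CPM in Wei and 21.7, 15.5 and 17.8 in Yorkshire, and SLC25A37 at 7.40, 6.24 and 7.44 in Wei and 9.69, 7.96 and 8.05 in Yorkshire. The first overlapped between breeds and the second did not, at 0.13 ± 0.16 and -0.29 ± 0.17 on the log2 scale. SLC25A37 made up 25.2%, 25.5% and 26.9% of the counts of the pair in Wei and 30.8%, 33.96% and 31.2% in Yorkshire, without overlap. Red blood cell markers summed to between 9.20 and 15.9 CPM in Wei and between 8.85 and 15.98 in Yorkshire. SLC25A39, needed for glutathione import, stood at 40.9, 56.6 and 29.9 CPM in Wei and 47.0, 42.4 and 35.6 in Yorkshire (0.027 ± 0.226), and its relative SLC25A40 at 10.3, 10.7 and 10.4 in Wei and 11.3, 15.5 and 11.8 in Yorkshire (-0.30 ± 0.16). SLC25A40 varied by 1.84% within Wei, the least of the members tested.

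**Figure D4:**
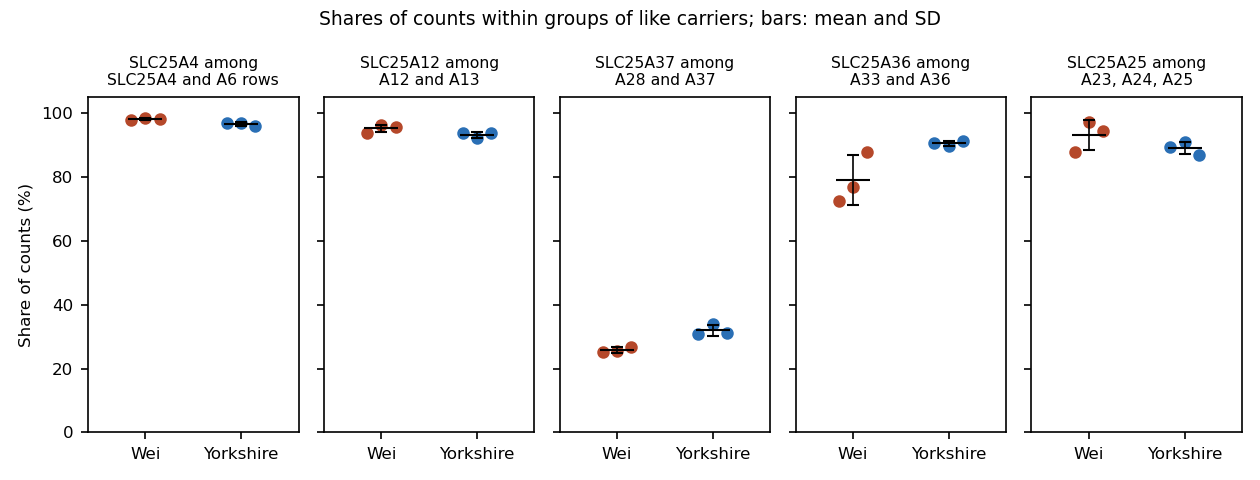
Share of counts (%) taken by 1 carrier among carriers of the same solutes, 1 point per library, with the mean and SD of each breed in black; the rows set against SLC25A4 are the 2 named SLC25A6. The shares of SLC25A37 and SLC25A36 are lower in the 3 Wei libraries than in the 3 Yorkshire libraries, and that of SLC25A25 overlaps.

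Relatives of the uncoupling proteins were SLC25A30 and SLC25A14, and 0 of the 2 passed edgeR's test, DESeq2, limma voom or an unadjusted p of 0.05. SLC25A30, on an unplaced scaffold (GL896381.1, 7016 to 20867), stood at 30.7, 39.7 and 46.3 CPM in Wei and 58.0, 46.7 and 47.4 in Yorkshire. Wei replicate 3 came just below the lowest Yorkshire library, and the log2 fold change was -0.38 ± 0.17 (edgeR, adjusted p = 0.230), and -0.23 without Wei replicate 1. SLC25A14 had 131 counts in all, 42 of them in Yorkshire replicate 2, and stood at 0.89, 1.11 and 0.49 CPM in Wei and 0.86, 2.32 and 0.91 in Yorkshire. On the log2 scale the difference was -0.71 ± 0.50, and -0.12 without Yorkshire replicate 2.

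Members with no settled solute and SLC25A46 numbered 8, of which 4 were tested. SLC25A34 (ENSSSCG00000003467, chromosome 6, 69390944 to 69394891) stood at 32.4, 15.99 and 18.8 CPM in Wei and 9.07, 11.0 and 5.25 in Yorkshire. The breeds did not overlap, and Wei replicate 1 was high among the Wei libraries. Its log2 fold change was 1.42 ± 0.33 (edgeR, adjusted p = 0.0492), 2.67 times the Yorkshire level, with adjusted p of 0.000723 in DESeq2 and 0.0485 in limma voom. It lay at the threshold: with any 1 of the 6 libraries left out the adjusted p was between 0.0508 (without Wei replicate 2) and 0.112, and the log2 fold change fell to 1.06 without Wei replicate 1. With library size alone for scaling the adjusted p was 0.0519.

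SLC25A45 stood at 2.96, 3.12 and 1.76 CPM in Wei and 1.48, 0.50 and 1.24 in Yorkshire. Each Wei library was above each Yorkshire library, at 1.246 ± 0.416 (edgeR, adjusted p = 0.119), on 215 counts in all. SLC25A46, a protein of the outer membrane that takes part in mitochondrial division, was steady at 79.4, 87.6 and 77.1 CPM in Wei and 84.3, 90.8 and 80.8 in Yorkshire (-0.068 ± 0.118). SLC25A43 likewise overlapped (0.059 ± 0.163).

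The members not tested besides SLC25A31 were SLC25A35, SLC25A47, SLC25A48 and SLC25A53. SLC25A35 had 56 counts in all, and its locus overlaps those of RANGRF (2608 counts) and ARHGEF15 (700 counts), so some of its reads may belong to them. SLC25A47, known as a liver carrier, had 2, 2 and 1 counts in Wei and 6, 5 and 18 in Yorkshire. SLC25A48 had 6 counts in all, and SLC25A53 was at 0 in each library.

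The members lie on 14 chromosomes and 2 scaffolds, and few are close together. SLC25A29 and SLC25A47 lie on chromosome 7 with a gap of 11969 bases and 1 other gene between them, and the X row of SLC25A6 and SLC25A43 with a gap of 12367 bases and none. In the first pair both had lower values in each Wei library, with SLC25A47 near the counting limit. In the second pair both overlapped between breeds.

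**Figure D5:**
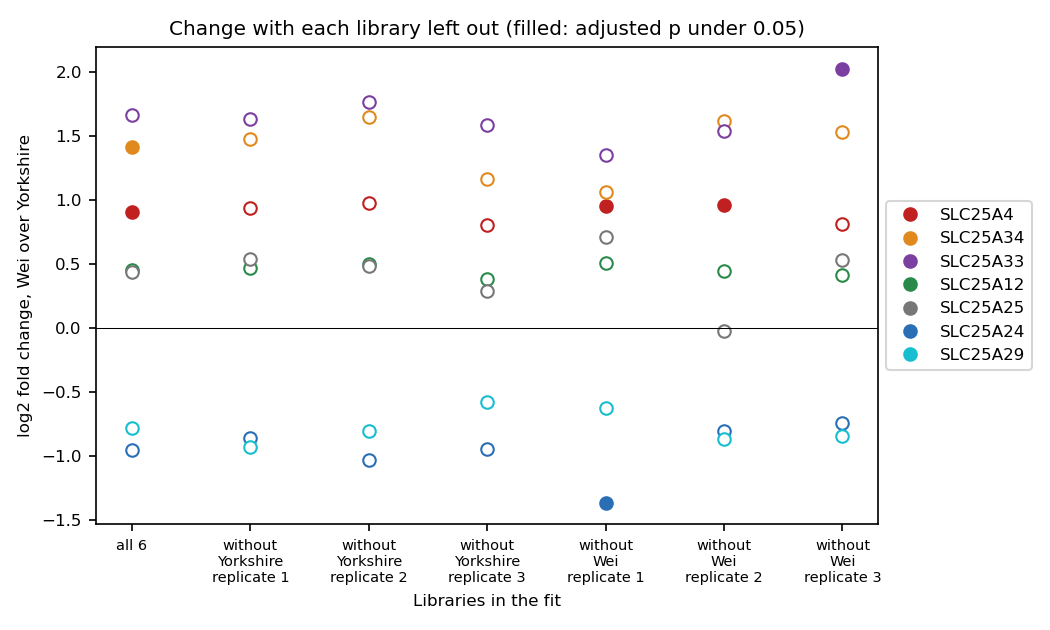
Log2 fold change of 7 carriers with all 6 libraries and with each library left out; filled points passed an adjusted p of 0.05 in edgeR. SLC25A4 stayed between 0.81 and 0.98 and passed in 2 of the 6 reduced fits, SLC25A34 passed in none, and SLC25A25 came to -0.020 without Wei replicate 2.

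Proteins that work with the carriers were described from lists of the import machinery, the shuttle enzymes, the outer membrane channels, the calcium uniporter and the ATP synthase. Carriers reach the inner membrane through the TOM complex and the small TIM chaperones. Of 12 import genes tested 1 fell in Wei, TIMM9, one of those chaperones, at 36.9 CPM in Yorkshire and 23.7 in Wei (-0.64 ± 0.13; edgeR, adjusted p = 0.0356), and 0 rose. Of all genes tested, 2.35% were called lower in Wei. At an unadjusted p under 0.05 in edgeR, 4 of the 12 were lower in Wei and 0 higher, beside 11.8% and 11.4% of all genes. The list's median log2 fold change was -0.11. Of 4 rows of outer membrane channels, through which solutes reach the carriers, VDAC2 rose in Wei, and 2.73% of all genes were called higher. VDAC2 had 190 CPM in Yorkshire and 281 in Wei (0.57 ± 0.11, edgeR adjusted p = 0.0333), and the list's median was 0.11.

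Of 6 shuttle enzymes 0 passed edgeR's test, with 1 at an unadjusted p under 0.05 (23.3% of all genes were). DESeq2 and limma voom each called 1 (9.78% and 4.88% of all genes). GOT2, the mitochondrial aspartate aminotransferase that works beside SLC25A12, had 128 CPM in Wei and 81.4 in Yorkshire (0.66 ± 0.16, edgeR adjusted p = 0.0521). GPD1, the most abundant of the list, had 880 and 909 CPM. Of 6 genes of the calcium uniporter 0 passed edgeR's test, 4 had an unadjusted p under 0.05, all higher in Wei (11.4% of all genes were), and DESeq2 called 2 higher (5.4% of all genes) and limma voom 0. The list's median log2 fold change was 0.46. Of 11 ATP synthase genes 0 passed with edgeR, DESeq2 or limma voom. In edgeR 2 were higher in Wei at an unadjusted p under 0.05 (11.4% of all genes were). ATP5B, the most abundant, had 1064 and 976 CPM (0.12 ± 0.15). Of the creatine kinases and cyclophilin D 3 were tested, and no tool of the 3 (edgeR, DESeq2, limma voom) called any, with 0 at an unadjusted p under 0.05 in edgeR and limma voom and 1 in DESeq2; CKM had 21681 CPM in Wei and 23055 in Yorkshire. MPC2, of the pyruvate carrier, had 78.5 and 73.9 CPM.

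Genes of the same family under other names were UCP2, UCP3, MTCH1 and MTCH2. UCP3, the uncoupling protein of muscle, rose in Wei (3.79 ± 0.22 on the log2 scale, edgeR adjusted p = 0.00091), and the other 3 did not pass. Among all genes tested, 2.73% were called higher in Wei. MTCH1 and MTCH2, of the outer membrane, had log2 fold changes of 0.18 ± 0.12 and 0.017 ± 0.113. Slow fibre markers, which mark oxidative fibres, had 7 of 7 positive log2 fold changes with a median of 0.29. With edgeR, DESeq2 or limma voom 0 passed, and 2 were higher at an unadjusted p under 0.05 in edgeR (11.4% of all genes). The 7 rows summed to 16890, 9666 and 16190 CPM in Wei and to 11710, 10606 and 11232 in Yorkshire. Wei replicate 2 was the lowest of the 6 and the other two Wei libraries the highest, and the part of fibre type in the carrier values was not tested. Mitochondrial genome transcripts took between 6.43% and 9.17% of counts in Wei and between 5.38% and 10.18% in Yorkshire, and the breeds overlapped.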

How the data were processed

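RNA sequencing was done on longissimus dorsi of 3 Wei and 3 Yorkshire libraries. Libraries came from an Illumina TruSeq kit, per the labels' protocols. CASAVA 1.7, TopHat2 2.0.9, edgeR and the build Sscrofa10.2 stand in the submitters' processing notes, with no role. The read counter, the annotation release and the use of strand: not given in the sources used here. The authors deposited 1 table of raw counts and FPKM values, by gene and library, per the file headers. Over 4854 genes with more than 200 counts in each library, FPKM was the count scaled by 1 factor for the gene and 1 for the library. Tests used the deposited counts, and levels between genes used FPKM.

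After filterByExpr (minimum count 10) and TMM, breed was tested by glmQLFit and glmQLFTest of edgeR 4.0.16 under R 4.3.3, with Benjamini-Hochberg adjustment over all genes and a threshold of 0.05; the biological coefficient of variation was 21.8%. Fold changes are Wei over Yorkshire, fitted without a prior count, and their SE is the change, without its sign, divided by the square root of F. Alternatives were DESeq2 1.42.0, limma 3.58.1 (voom), other scalings, filters and thresholds, a replicate block, leaving out mitochondrial genes and ACTA1, and leaving out each library. The procedure was tested on simulated data. Every pair of libraries differed by more than sampling noise (chi-square over its degrees of freedom, 26.3 or more).

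Members and lists were chosen with earlier results of these data known. Values per library were given for members past the threshold, the 6 highest by FPKM, the 5 largest changes in each direction at a mean of at least 1 CPM, and members of groups that share a solute; others shown per library were added after their values were seen. Members were named by the table's own symbols, other lists also by ID. Of the 39 member IDs 31 matched the table that pairs IDs with symbols, 28 with the same symbol. Endothelial and macrophage markers summed to 150 to 213 and 11.1 to 18.0 CPM in Wei and to 192 to 218 and 8.91 to 37.1 CPM in Yorkshire. A few genes are not reported here by name, though they stay in the tests and counts. Figures were drawn with matplotlib 3.10.9.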

Additional observations from a re-analysis of the deposited data

How the results depend on the processing

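With 3 libraries per breed the calls among carriers were few and near the threshold. Of 34 members tested 2 passed with RLE size factors, limma voom and without mitochondrial genes and ACTA1, as did 2 of 32 with the 1 CPM filter and 3 of 37 without a count filter. Library size alone gave 1 (SLC25A4), DESeq2 5 (4 higher, 1 lower), an adjusted p of 0.01 gave 0 and one of 0.1 gave 6 (4 higher, 2 lower). Leaving out a library, which leaves fewer samples in the fit, gave 0 to 2 members and 60 to 394 genes in all. With all 6 libraries DESeq2 called 1291 genes in all and edgeR 671. The cause of these differences was not tested. The replicate block gave 0 members, with SLC25A4 at an adjusted p of 0.0502 and SLC25A34 at 0.0514. Libraries with the same number deviated from their breed means with correlations of 0.16, -0.022 and 0.020, and only those numbered 1 correlated best with their own number, and the numbers were therefore not used to pair libraries.

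With a library left out 10 of the 34 members turned direction: SLC25A25 (-0.020), the scaffold row of SLC25A6 (0.11), SLC25A13 (0.039), SLC25A23 (0.053) and SLC25A39 (-0.23) without Wei replicate 2, SLC25A13 (0.080) and SLC25A26 (0.0025) without Yorkshire replicate 2, SLC25A32 (0.11) without Wei replicate 3, SLC25A44 (-0.092) and SLC25A43 (-0.012) without Wei replicate 1, and SLC25A39 (-0.071), SLC25A43 (-0.050) and SLC25A16 (-0.035) without Yorkshire replicate 3. The first 4 reached 0.71, -0.25, -0.25 and -0.31 at the other end of these fits. SLC25A39 also turned with limma voom (-0.018) and the replicate block (-0.011). With a library left out 23 of the 34 turned or moved by over 1.5 times, SLC25A4 and SLC25A34 not among them. In FPKM the Wei minus Yorkshire difference in share was 3.75 percentage points for SLC25A4, -7.62 for SLC25A24 and 8.68 for SLC25A25, since FPKM weighs genes by length. With a library left out, count shares differed by 1.20 to 1.79 points for SLC25A4, 1.45 to 2.63 for SLC25A12, -6.70 to -5.15 for SLC25A37, -15.9 to -8.20 for SLC25A36, -5.10 to -2.51 for SLC25A24, 2.08 to 6.69 for SLC25A25 and -1.59 to 0.43 for SLC25A23, which turned without Wei replicate 2.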

Other observations

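Rows that the table does not name as carriers added 2 values. The row with ID ENSSSCG00000013927 (chromosome 2, 58606501 to 58627845) is named ARMC6 in the deposited table and SLC25A42, the mitochondrial coenzyme A carrier, in the table that pairs IDs with symbols. It stood at 23.1, 13.7 and 26.8 CPM in Wei and 9.85, 7.52 and 5.06 in Yorkshire, or 1.51 ± 0.30 on the log2 scale (edgeR, adjusted p = 0.0352). The breeds did not overlap, and which of the 2 genes its reads come from was not tested. The row with ID ENSSSCG00000001720, with no symbol in the deposited table and SLC25A27 by ID, a relative of the uncoupling proteins, stood at 6.74, 9.04 and 4.21 CPM in Wei and 6.29, 7.58 and 7.51 in Yorkshire, and overlapped between breeds.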
